A study of Mus musculus with 6 samples.

Results

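The cytosolic ribosomal proteins are the protein components of the large (60S) and small (40S) subunits of the ribosome. Their genes were taken by symbol from the deposited expression table: Rpl or Rps followed by a number, with an optional a, x, l or l1, together with Rplp0, Rplp1, Rplp2 and Rpsa. Pseudogenes and the Rps6k kinases were left out. The rule found 82 genes among 23359 gene symbols, 51 of the large subunit and 31 of the small subunit. Of these, 80 averaged 1 FPKM or more and were tested, 49 large and 31 small. FPKM are fragments scaled by transcript length and library size. Rpl10l and Rpl39l were listed at 0 in all 6 libraries and were not tested.

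Polyadenylated RNA of mouse bone marrow was sequenced from 3 Gab2 +/+ samples (WT A, B and C) and 3 Gab2 -/- samples (NULL A, B and C). GAB2 is an adaptor protein that links cytokine receptors to downstream signalling. The sources used here give neither the age and strain of the mice nor the way in which Gab2 was disrupted, nor any treatment or culture. Since the labels name no animals, the p-values reflect no more than the variation among these 6 libraries, part or all of which may be technical. The comparison asks how the transcripts of the ribosome differ between the genotypes.

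Each ribosome holds 1 copy of nearly every ribosomal protein, and the stalk proteins Rplp1 and Rplp2 are present as dimers. The mRNAs of these proteins carry a 5' terminal oligopyrimidine tract, the TOP motif, through which the kinase mTOR and the RNA-binding protein LARP1 adjust their translation and stability. MYC and other growth signals raise transcription of the genes, and in bone marrow a shortage of single ribosomal proteins causes Diamond-Blackfan anaemia. Each functional gene has many processed pseudogenes, copies of its mRNA elsewhere in the genome, so that short reads can often be placed in more than 1 location.

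Some ribosomal proteins have a paralog that can take their place in the ribosome, and both coding sequences of a pair are shown because the ratios within pairs below depend on telling them apart. Rpl22 (chromosome 4, 152325742 to 152334071, plus strand) and Rpl22l1 (chromosome 3, 28805436 to 28807424, plus strand) had 72.7% identical bases over 366 aligned coding bases. Rps27 (chromosome 3, 90212522 to 90213651, minus strand) and Rps27l (chromosome 9, 66946086 to 66949516, plus strand) had 76.1% over 255. Positions and sequences are from GENCODE vM21 on GRCm38. The first 240 coding bases are shown for Rpl22 and Rpl22l1 and the whole coding sequence for Rps27 and Rps27l. Capitals mark bases that differ from the partner or face a gap in the alignment.
Rpl22: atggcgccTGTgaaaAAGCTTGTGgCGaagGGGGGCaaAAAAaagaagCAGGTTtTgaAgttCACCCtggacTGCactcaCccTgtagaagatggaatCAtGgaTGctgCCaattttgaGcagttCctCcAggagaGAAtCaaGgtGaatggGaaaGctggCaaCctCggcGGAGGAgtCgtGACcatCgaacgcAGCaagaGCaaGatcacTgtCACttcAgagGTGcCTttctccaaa
Rpl22l1: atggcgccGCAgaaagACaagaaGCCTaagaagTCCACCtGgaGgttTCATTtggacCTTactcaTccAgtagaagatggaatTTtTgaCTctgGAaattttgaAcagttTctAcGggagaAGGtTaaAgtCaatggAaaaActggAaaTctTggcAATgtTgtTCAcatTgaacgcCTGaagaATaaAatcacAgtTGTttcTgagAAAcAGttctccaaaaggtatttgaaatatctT
Rps27: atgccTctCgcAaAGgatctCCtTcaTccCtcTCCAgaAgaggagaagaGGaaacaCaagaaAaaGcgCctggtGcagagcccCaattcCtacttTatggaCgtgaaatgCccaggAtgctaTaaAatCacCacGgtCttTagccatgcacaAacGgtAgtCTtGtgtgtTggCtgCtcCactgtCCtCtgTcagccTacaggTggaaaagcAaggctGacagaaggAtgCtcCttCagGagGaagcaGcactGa
Rps27l: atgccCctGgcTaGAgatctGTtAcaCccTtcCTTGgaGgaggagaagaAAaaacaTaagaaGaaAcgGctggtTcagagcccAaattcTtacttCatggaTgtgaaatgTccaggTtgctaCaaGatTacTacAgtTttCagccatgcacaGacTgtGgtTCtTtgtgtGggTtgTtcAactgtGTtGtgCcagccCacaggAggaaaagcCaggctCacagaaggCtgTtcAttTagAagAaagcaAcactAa
The differing bases are spread along both pairs. Identity was 74.4% for Rpl3 and Rpl3l, 63.6% for Rpl7 and Rpl7l1, 84.8% for Rpl10 and Rpl10l, 85.3% for Rpl39 and Rpl39l and 87.9% for Rpl36a and Rpl36al.

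Short motifs were counted near the start sites of the genes. RefSeq promoter entries on GRCm38.p6, each of 250 bases before and 50 after a start site, were matched by symbol for 62 of the 82 genes. CTTTC on the sense strand within 30 bases of the start stood in 22 of the 62 (35.5%), against 9.18% of 27025 genes with an entry. CCGGAAG on either strand, a sequence bound by ETS-family factors such as GABPA, stood in 25 (40.3%), against 9.93%. A palindromic CACGTG, the E-box bound by MYC, stood in 9.68% of the members and 8.09% of all genes. The windows below run from 60 bases before the start to 25 bases from it, for a pair of genes among the most reduced, for Rps27l and for Rplp2, with CTTTC and CCGGAAG in capitals.
Rps13, chr7:116334166-116334250, minus strand: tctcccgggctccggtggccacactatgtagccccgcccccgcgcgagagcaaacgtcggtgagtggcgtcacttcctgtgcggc
Rpl22l1, chr3:28805448-28805532, plus strand: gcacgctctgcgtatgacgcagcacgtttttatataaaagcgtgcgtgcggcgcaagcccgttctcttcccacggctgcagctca
Rps27l, chr9:66946026-66946110, plus strand: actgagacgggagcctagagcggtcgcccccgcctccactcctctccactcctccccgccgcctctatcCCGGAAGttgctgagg
Rplp2, chr7:141447591-141447675, plus strand: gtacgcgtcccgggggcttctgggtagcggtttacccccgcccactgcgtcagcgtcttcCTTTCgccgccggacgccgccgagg
The window of Rplp2 holds CTTTC at its start site, that of Rps27l holds CCGGAAG, and those of Rps13 and Rpl22l1 hold neither. Among the tested members with an entry, CTTTC was found in 13 of 39 genes called lower in NULL and in 8 of 21 others, and CCGGAAG in 16 of 39 and 8 of 21. These matches are a description of letters in the window.

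The 6 libraries differed in ways that touch the ribosomal proteins. The low FPKM steps placed their depth at approximately 17.8 M to 67.6 M fragments. Summed FPKM of the 82 genes was 84174, 87747 and 108524 in WT A, B and C, and 72360, 63886 and 66651 in NULL A, B and C. WT C stood above the other libraries, and every NULL library was below every WT library. As a share of the summed FPKM without small RNA genes, however, the ribosomal proteins held 23.7%, 24.2% and 27.2% in WT and 24.3%, 23.6% and 23.2% in NULL, which overlap. Small RNA genes took 6.01% to 31.4% of the summed FPKM, in both genotypes. Gab2 read 3.33, 3.10 and 2.43 FPKM in WT and 0.123, 0.145 and 0.203 in NULL.

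The libraries are labelled bone marrow, but markers of granulocytes were at or near 0. The 8 B-lineage markers summed to 2012 to 2210 FPKM in WT and 3022 to 3180 in NULL, and 6 of the 8 were called higher. The 8 granulocyte markers summed to at most 0.186 FPKM and the 6 T and NK markers to at most 0.166, with Elane, S100a8, S100a9 and Cd4 at 0 throughout. The 5 erythroid markers summed to 7.45 to 58.8 FPKM in WT and at most 0.145 in NULL, nearly all of it Hbb-b1, and the 6 monocyte markers with a row to 1.02 to 1.59 and 3.42 to 4.59. Among the monocyte markers, Lyz2 averaged 0.413 FPKM in WT and 2.85 in NULL. Cd68 averaged 0.897 and 0.888, and C1qa and C1qb were at 0. All 6 proliferation genes, such as Pcna and Mki67, were called lower. The part of these shifts in the ribosomal protein results was not tested, and in bulk RNA a smaller number of cells of a type and less RNA per cell cannot be told apart.

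Most ribosomal protein transcripts were lower in the NULL libraries on the deposited scale. Of the 80 tested genes, 50 were called lower (62.5%), 1 was called higher (Rpl3l) and 29 were not called (limma on log2(FPKM + 1), adjusted p under 0.05). Among all 9916 tested genes 42% were called lower, 23.3% higher and 65.3% in either direction, so the background is high. The median log2 change was -0.47 for the ribosomal proteins and -0.13 for all tested genes. The change was negative for 72 of the 80, against 5971 of the 9916. All NULL values lay below all WT values for 54 genes (67.5%), against 45.1% of all genes, and above them for Rpl3l, against 26%. Over all genes 71% had groups without overlap in either direction.

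The medians of the subunits lay close together, and the difference between them was not tested. In the large subunit 33 of 49 genes were called lower (67.3%), with a median log2 change of -0.48. In the small subunit 17 of 31 were called lower (54.8%), with a median of -0.45. The ratio of summed large-subunit to small-subunit FPKM stayed between 1.30 and 1.32 in the 6 libraries. These are abundant transcripts: 36 genes averaged at least 1000 FPKM, and 57 of the 82 stood among the 100 genes with the highest mean. The median tested member read 1037 FPKM in WT and 797 in NULL, against 10.1 and 9.36 for the median tested gene. Other tested genes of at least 200 FPKM had a median log2 change of -0.64 (89 of 148 called lower), and other tested genes with transcripts under 1000 bases -0.30 (290 of 612).

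**Figure D1:**
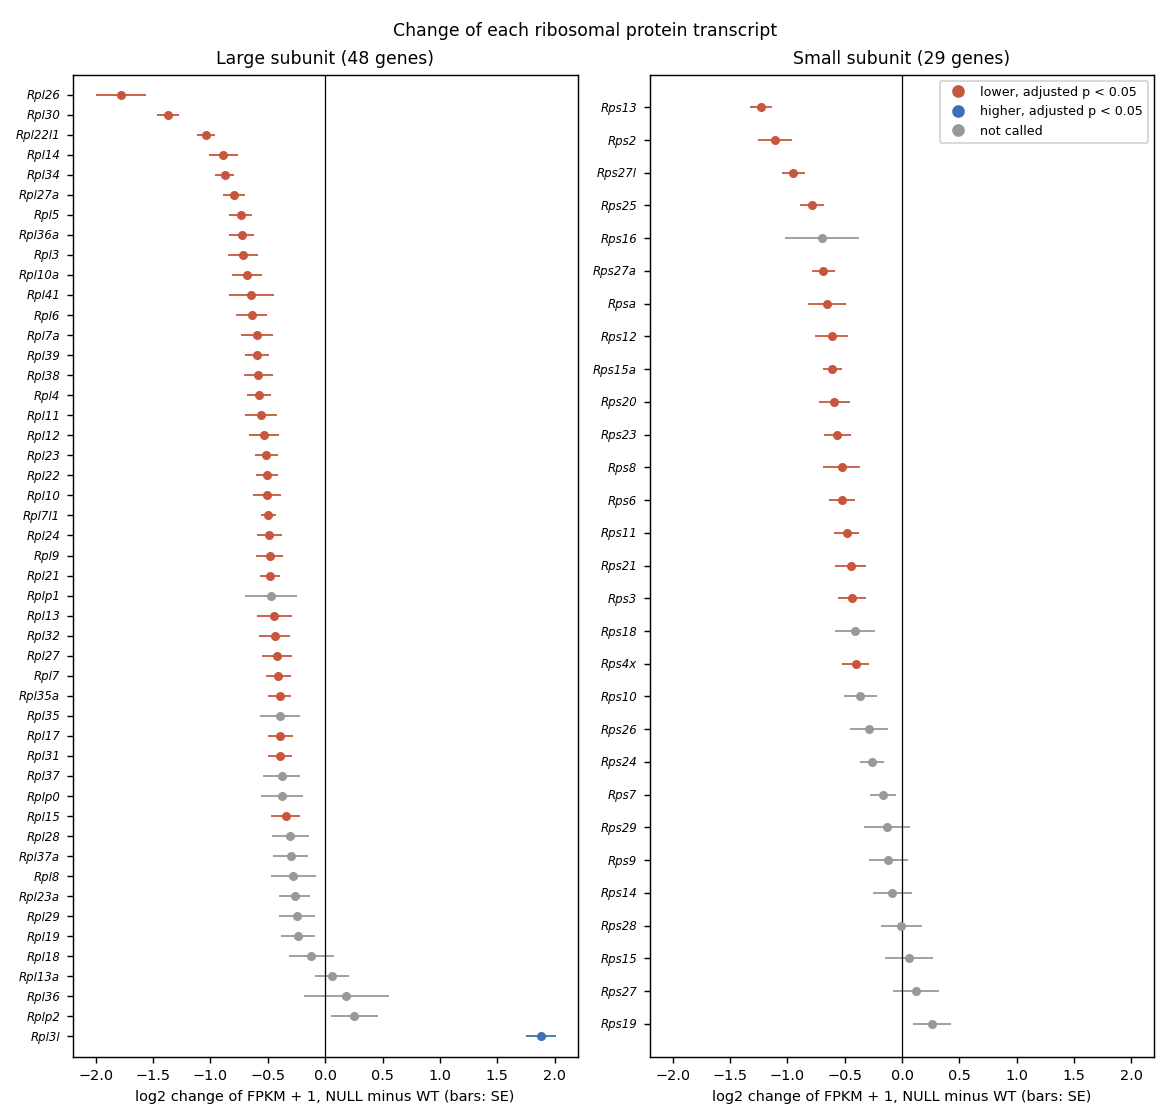
Log2 change of FPKM + 1 (NULL minus WT, x axis; bars show the standard error) for 48 large-subunit and 29 small-subunit genes, ordered by change. Most points lie left of 0, the median being -0.47, and Rpl3l alone is called higher.

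The size of the group's decrease depended on how libraries were made comparable. The median-of-ratios factors were 1.04 to 1.07 for WT and 0.928 to 0.960 for NULL libraries, and rescaling by them left 39 genes lower and 2 higher (Rpl3l and Rps19), with a median of -0.32 against 0.01 for all genes. After quantile normalization 21 were lower and 9 higher (median -0.10, all genes -0.03). After rescaling to a common total 9 were lower and 2 higher (median -0.19, all genes 0.11). Without small RNA genes in that total, the reduced total, 21 were lower and 9 higher (median -0.09, all genes 0.20). The shares of all genes called lower under these 4 scalings were 32.7%, 33%, 10.1% and 20.6%, and of those called higher 31.7%, 28.5%, 20.4% and 45.1%. The median change of the ribosomal proteins remained below that of all genes in each of the 4. It lay above that of the other tested genes of at least 200 FPKM, which was -0.48, -0.18, -0.36 and -0.26.

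**Figure D2:**
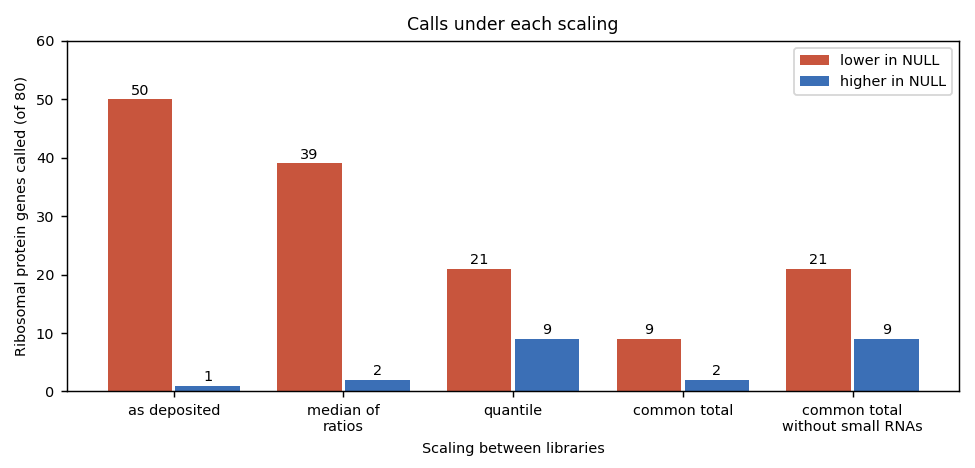
Number of the 80 tested ribosomal protein genes called lower or higher in NULL (limma adjusted p under 0.05, y axis) on the deposited scale and after 4 rescalings (x axis). Lower calls range from 9 to 50 and higher calls from 1 to 9.

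Lower under all 5 scalings were 9 genes: Rpl14, Rpl22l1, Rpl26, Rpl30, Rpl34, Rps13, Rps2, Rps25 and Rps27l. They are 11.2% of the tested members, against 9.85% of all tested genes that were lower under all 5, so the count is near the background. This set was chosen after its values were seen, and for Rpl26, Rpl30 and Rpl34 the row of an annotated copy holds most of the FPKM, as described further on.

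Rps13, a small-subunit protein on the body side of the 40S particle, was among the most reduced. It read 1147, 1172 and 1298 FPKM in WT and 532, 505 and 505 in NULL, so that all NULL libraries were well below all WT libraries. NULL held 42.6% of the WT mean (1206 ± 80.8 FPKM in WT and 514 ± 15.3 in NULL, SD, n = 3 each), and the log2 change was -1.23 (SE 0.0938, limma adjusted p = 3.93e-05). The change lay between -1.07 and -0.85 under the 4 rescalings.

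Rps2, which lines the mRNA entry channel, read 1726, 1806 and 2236 FPKM in WT and 1002, 767 and 909 in NULL. The groups did not overlap, and WT C was the highest. The log2 change was -1.11 (SE 0.150, limma adjusted p = 0.000417), with 46.4% of the WT mean remaining. Of its transcript, 58.5% of the 100-base stretches are also found in other annotated genes, so its level is uncertain.

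Rpl22l1, the paralog of Rpl22, read 503, 512 and 561 FPKM in WT and 252, 256 and 256 in NULL. The NULL libraries were nearly equal, and all lay below every WT library. The log2 change was -1.04 (SE 0.0799, limma adjusted p = 4e-05).

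Rps27l, a paralog of Rps27 known as a target of p53, read 408, 383 and 406 FPKM in WT and 215, 181 and 225 in NULL. The groups were again apart, and WT C did not stand above the other WT libraries. The log2 change was -0.95 (limma adjusted p = 0.000127). No 100-base stretch of its transcript occurs in another annotated gene.

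Rpl14, a large-subunit protein on the solvent side, read 940, 942 and 1172 FPKM in WT and 595, 498 and 553 in NULL, a log2 change of -0.89 (limma adjusted p = 0.000502). Rps25, which is needed by several viral internal ribosome entry sites, read 1359, 1369 and 1573 FPKM in WT and 868, 807 and 821 in NULL. Its log2 change was -0.78 (limma adjusted p = 0.000398). Neither gene's groups overlapped.

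**Figure D3:**
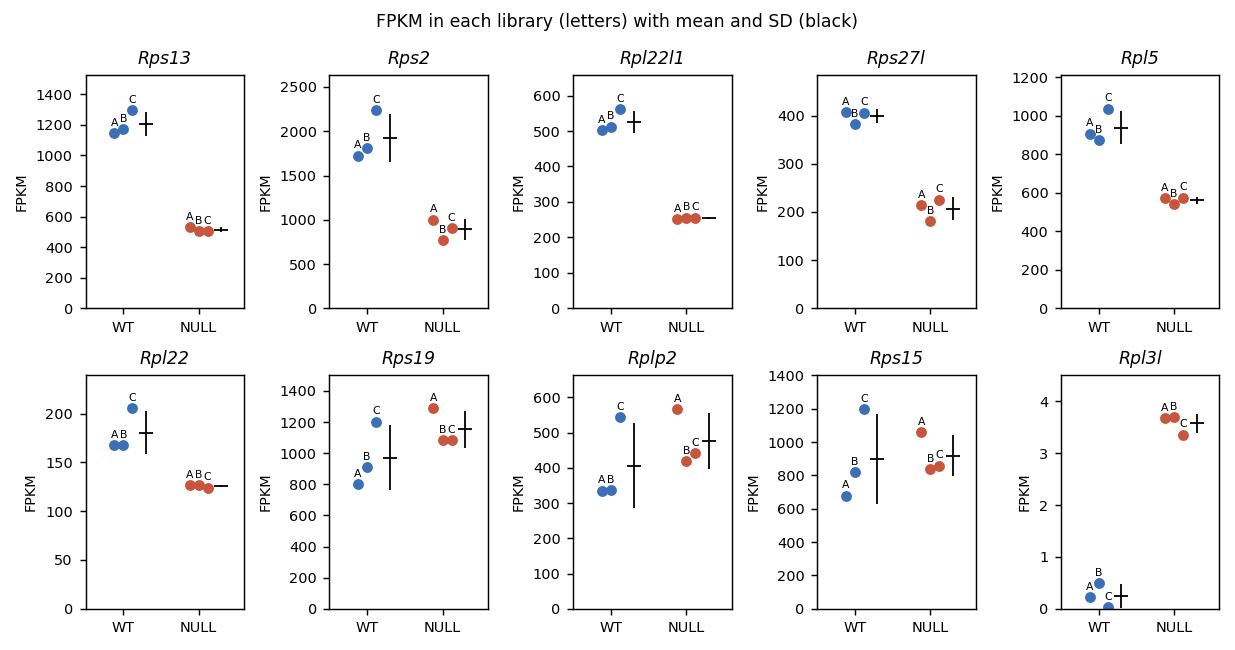
FPKM (y axis, starting at 0) of 10 ribosomal protein genes in each WT and NULL library (points with the letter of the library), with the mean and SD in black. Rps13, Rps2, Rpl22l1, Rps27l, Rpl5 and Rpl22 are lower in every NULL library, Rpl3l is higher in every one, and in Rps19, Rplp2 and Rps15 the groups overlap, with WT C and NULL A the highest of their groups.

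None of the 3 proteins of the P stalk, the flexible arm that recruits elongation factors, was called in either direction. Rplp0, the stalk base, read 867, 918 and 1317 FPKM in WT and 925, 700 and 738 in NULL, and the groups overlapped. Rplp1 read 558, 519 and 775 in WT and 603, 355 and 392 in NULL. Rplp2 read 335, 338 and 545 in WT and 567, 419 and 443 in NULL, a log2 change of 0.26 (SE 0.208, limma adjusted p = 0.309). In each of the 3 genes WT C and NULL A were the highest libraries of their groups.

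Rpl5 and Rpl11, which bind 5S ribosomal RNA and, when free, the p53 regulator MDM2, were both called lower. Rpl5 read 907, 873 and 1038 FPKM in WT and 571, 541 and 575 in NULL (log2 change -0.74, limma adjusted p = 0.000436). Rpl11 read 1289, 1385 and 1729 in WT and 1090, 930 and 955 in NULL (log2 change -0.56, limma adjusted p = 0.00892). The groups of both genes were apart. Under the median-of-ratios, quantile, common-total and reduced-total scalings, 2, 2, 0 and 1 of the pair were called lower.

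At the mRNA channel and decoding side of the small subunit, 4 of 9 genes were called lower, Rps2, Rps3, Rps23 and Rpsa, and 0 higher, a share close to the 42% of all tested genes. Under the median-of-ratios, quantile, common-total and reduced-total scalings, 3, 2, 1 and 1 were lower and 0, 3, 0 and 3 higher. Rps23, a protein next to the decoding centre, read 2083, 2166 and 2562 FPKM in WT and 1545, 1487 and 1561 in NULL (log2 change -0.56, limma adjusted p = 0.00442). Rps15 read 678, 822 and 1199 in WT and 1058, 839 and 859 in NULL, a log2 change of 0.06 (SE 0.210), so the spread between libraries was larger than the difference. At the exit of the peptide tunnel 5 of 8 large-subunit genes were called lower, and 3, 1, 1 and 3 under the same scalings, with 0 higher. Rpl4, whose extension lines the tunnel, was among the 5 and read 1577, 1556 and 1797 FPKM in WT and 1145, 1063 and 1093 in NULL (log2 change -0.58, limma adjusted p = 0.00211). Rps6, the substrate of the S6 kinases, read 1319, 1350 and 1605 FPKM in WT and 974, 958 and 1025 in NULL (log2 change -0.53, limma adjusted p = 0.00441).

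Of 19 genes mutated in Diamond-Blackfan anaemia, 9 were called lower and 0 higher, with a median log2 change of -0.36, a share near the 42% of all tested genes. Under the 4 rescalings, in the order given above, 5, 3, 1 and 3 were lower and 1, 2, 1 and 3 higher, and the median reached 0.02. Rps19, the gene most often mutated in this anaemia, read 799, 908 and 1203 FPKM in WT and 1289, 1083 and 1085 in NULL. Its log2 change was 0.26 (SE 0.166, limma adjusted p = 0.196), and WT C lay among the NULL values.

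The transcripts did not keep fixed proportions to each other. To compare each gene with the rest of the ribosomal proteins, every library was divided by its median ribosomal protein level, which was 1.08, 1.12 and 1.37 in WT and 0.900, 0.817 and 0.840 in NULL relative to the geometric mean. On this scale, which apart from the added 1 FPKM does not depend on the scaling between libraries, 15 of the 80 genes were called lower and 15 higher, and 50 were not called. Of all tested genes 13.5% were called lower, 46.8% higher and 60.3% in either direction on the same scale. The median member sits at 0.00 by construction.

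Rpl26, Rpl30, Rps13 and Rps2 were the most reduced relative to the other members, with log2 changes of -1.31, -0.90, -0.75 and -0.63. Rpl3l, Rps19, Rplp2 and Rpl36 were the most raised, with 2.10, 0.74, 0.73 and 0.66. The limma adjusted p was 0.000142 for Rps2 and 0.000854 for Rplp2. Rpl36 only just passed (limma adjusted p = 0.0488), and its WT C level was 2.52 times the mean of WT A and WT B. Without WT C, all 15 lower and all 15 higher genes were called again, with 15 lower and 20 higher in all. With copy rows of Rpl26, Rpl30, Rpl34 and Rps27 added, 12 of the 15 lower and 14 of the 15 higher genes were called again. The lower genes lost were Rpl26, Rpl30 and Rpl34, whose log2 changes then were -0.03, -0.07 and 0.14. With the replicate letter fitted as a replicate block, 11 of the 15 lower and all 15 higher genes were called again.

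The reduced side held 10 large-subunit and 5 small-subunit genes, among them Rpl5, Rpl3, which shapes the peptidyl transferase centre, and Rps27a. With the replicate block, Rpl5, Rpl3 and Rps27a were among the genes no longer called (limma adjusted p = 0.0663, 0.0604 and 0.0902). The raised side held 8 large-subunit and 7 small-subunit genes, among them Rps15, Rpl13a, a protein of the interferon-gamma response, and Rps28. These further names were chosen after their values were seen.

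**Figure D4:**
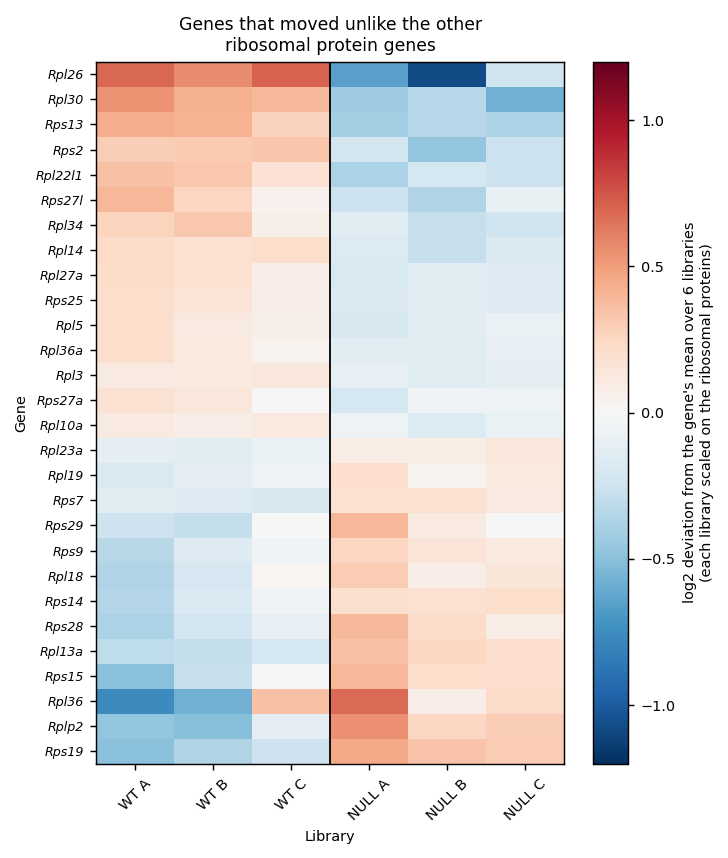
Deviation (log2, colour) of each gene from its own mean over the 6 libraries (columns), with every library scaled on the ribosomal proteins, for the genes called lower (top 15 rows) or higher (bottom 13 rows) on that scale, leaving out Rpl3l, at 2.10. WT C is nearer to 0 than WT A and WT B for most genes of the lower block of rows, and NULL A is among the highest libraries.

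GC content and 2 libraries moved with these proportions. Across the 80 genes the GC content of the transcript had a Spearman correlation of 0.277 with the change, and of -0.43, -0.35 and 0.23 with the deviations of WT A, B and C and 0.43, 0.05 and 0.14 with those of NULL A, B and C. The genes share their libraries, so these values are descriptions. The difference of WT C from WT A and that of NULL A from NULL B, which have no library in common, had a Spearman correlation of 0.743 across the genes. Of the 20 genes with the lowest GC content, 17 were called lower, and of the 20 with the highest, 9. After a correction for GC content these counts were 14 and 15. Of the 80 genes 54 were then called lower, where 44.4% of all tested genes were called lower. Of the 15 lower and 15 higher genes of the comparison within ribosomal proteins, 13 and 14 were called again after the correction.

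In 4 of 5 readable paralog pairs the ratios did not overlap between the groups, where 71% of all tested genes have levels without overlap. Ratios within a library are nearly free of the scaling between libraries for abundant genes, but for Rpl3l and Rps27, which are at a few FPKM, they depend on the 1 FPKM added to each value. For each ratio 3 libraries against 3 allow no exact permutation p below 0.1. Rpl3l, the muscle form of Rpl3, read 0.230, 0.496 and 0.0365 FPKM in WT and 3.67, 3.69 and 3.36 in NULL. All NULL libraries were above all WT libraries, yet the gene stayed under 0.5% of Rpl3, which read 1224, 1279 and 1589 FPKM in WT and 886, 779 and 814 in NULL. The log2 change of Rpl3l was 1.88 (SE 0.133, limma adjusted p = 3.11e-05), and its log2 ratio to Rpl3 differed by 2.60 with a pseudocount of 1 FPKM and by 4.33 with 0.1 (exact two-sided permutation p = 0.1), so the size of this difference is set by the pseudocount. Rpl3l lies on chromosome 17 close to Rps2, from 24727820 to 24736143 on the plus strand, while Rps2 runs from 24718116 to 24721929.

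Rpl22l1 was lower relative to Rpl22 in the NULL libraries. Rpl22 read 167, 168 and 206 FPKM in WT and 126, 127 and 124 in NULL (log2 change -0.51, limma adjusted p = 0.00208). Rpl22l1 stood at 300%, 306% and 273% of Rpl22 in WT and at 200%, 202% and 206% in NULL, without overlap. The log2 ratio differed by -0.53 (exact two-sided permutation p = 0.1, the smallest possible), and the order of the pair, with Rpl22l1 above Rpl22, was the same in all 6 libraries.

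Rps27a, made as a fusion of a small-subunit protein with ubiquitin, read 1469, 1473 and 1645 FPKM in WT and 930, 950 and 965 in NULL, without overlap (log2 change -0.69, limma adjusted p = 0.000589).

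The remaining pairs changed less or could not be read. Rpl36al amounted to 34.5%, 37.0% and 35.1% of Rpl36a in WT and 38.3%, 39.0% and 39.1% in NULL, a log2 difference of 0.13 (exact two-sided permutation p = 0.1). Rpl7l1, which read 46.5, 43.2 and 45.6 FPKM in WT and 33.1, 30.1 and 32.1 in NULL, differed from Rpl7 by -0.09 (exact two-sided permutation p = 0.3), and the ratios overlapped. Rpl10l and Rpl39l were listed at 0 in every library, while Rpl10 averaged 1979 ± 226 FPKM in WT and 1389 ± 82.4 in NULL, and Rpl39 2767 ± 104 and 1832 ± 48.0 (SD, n = 3 each). Rpl10 and Rpl39 were both called lower (limma adjusted p = 0.00802 and 0.00193). Rps4x was called lower as well (log2 change -0.40, limma adjusted p = 0.0155), and no row for Rps4l was used here.

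Rps27 shows how copies bear on these values. Its own row read 1.32, 1.67 and 1.91 FPKM in WT and 1.99, 2.69 and 1.10 in NULL, far below every other small-subunit gene. The row of Gm9846, an intronless copy that GENCODE vM21 names Rps27rt, read 3228, 3243 and 3861 FPKM in WT and 3249, 3395 and 3403 in NULL. Of the 100-base stretches of Rps27, 57.9% occur in that copy. The 2 rows added together changed by -0.04 on the log2 scale. Against this sum, Rps27l stood at 12.6%, 11.8% and 10.5% in WT and at 6.61%, 5.32% and 6.62% in NULL, a log2 difference of -0.91 without overlap (exact two-sided permutation p = 0.1). Against the Rps27 row alone the difference was -1.07.

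Rows of copies were also far above the genes' own rows for Rpl26 and Rpl30, the 2 genes with the largest declines, and for Rpl34. Rpl26 read 131, 125 and 168 FPKM in WT and 42.5, 28.6 and 53.0 in NULL, a log2 change of -1.78 (SE 0.216, limma adjusted p = 0.000246). Its processed pseudogene Gm15772 read 2012, 2180 and 2688 FPKM in WT and 1687, 1614 and 1738 in NULL, and the 2 rows together changed by -0.49. That sum is close to the median of the group, -0.47.

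Rpl30 read 67.0, 64.0 and 76.5 FPKM in WT and 28.0, 27.0 and 23.5 in NULL, a log2 change of -1.37 (SE 0.0945, limma adjusted p = 2.93e-05). Its pseudogene Gm12191 read 1478, 1505 and 1627 in WT and 1079, 1099 and 1069 in NULL, and together they changed by -0.53. Rpl34 read 14.7, 15.9 and 16.1 in WT and 8.97, 7.35 and 7.80 in NULL, a change of -0.87. Rpl34-ps1 read 1027, 1096 and 1396 in WT and 954, 892 and 945 in NULL, and together they changed by -0.33. In each of these 3 genes the pseudogene row held nearly all of the FPKM and differed less between the groups than the gene's own row.

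**Figure D5:**
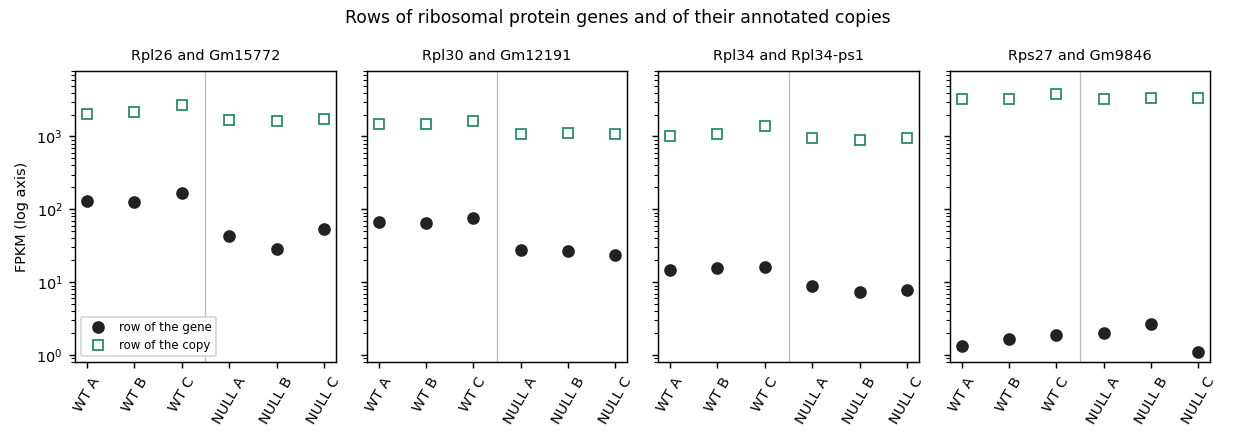
FPKM (log axis) of the rows of Rpl26, Rpl30, Rpl34 and Rps27 (filled circles) and of the annotated copy with which each shares stretches (open squares) in the 6 libraries. The copy rows lie between 892 and 3861 FPKM, above the genes' own rows in every library.

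Shared sequence was common among the ribosomal proteins. In 74 of the 82 genes at least 1 stretch of 100 bases occurs in another annotated gene, and in 22 genes over 50% of the stretches do. Among these 22 are Rpl10 (84.4%), Rps6 (83.6%), Rpl36a (83.6%), Rpl3 (79.4%), Rpl11 (59.7%) and Rps27a (53.8%), so their levels are uncertain as well. Of the stretches of Rpl22l1, 40.6% occur in a pseudogene. The 8 genes without a shared stretch include Rpl22, Rpl3l, Rps21, Rps27l and Rps3. Rps3, a protein of the mRNA entry site, read 612, 637 and 799 FPKM in WT and 538, 479 and 491 in NULL (log2 change -0.43, limma adjusted p = 0.0155). With the copy rows of Rpl26, Rpl30, Rpl34 and Rps27 added to these genes, 49 of the 80 genes were called lower and 1 higher. In that fit 42% of all tested genes were called lower and 23.3% higher. Copy rows that stood below the gene's own row were not added.

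Neighbouring genes of the pathway were read from fixed lists, chosen with results of these data known. Of 27 TOP mRNAs outside the ribosomal proteins, 21 were called lower and 1, the initiation factor subunit Eif3f, higher, with a median log2 change of -0.66. Eef1a1, the elongation factor that delivers transfer RNAs, read 6588, 6556 and 7538 FPKM in WT and 4861, 4614 and 4976 in NULL (log2 change -0.51, limma adjusted p = 0.0138). Npm1, nucleophosmin, which takes part in ribosome assembly, fell further, from 1789, 1729 and 1886 to 564, 558 and 621 FPKM (log2 change -1.63). The decline of Npm1 was larger than that of every tested ribosomal protein gene except Rpl26.

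Of 14 chaperones and importers of ribosomal proteins, 13 were called lower and 0 higher, with a median of -1.02. Rpf2, which with Rrs1 brings Rpl5 and Rpl11 into the particle, read 44.6, 45.7 and 43.4 FPKM in WT and 17.1, 15.1 and 18.1 in NULL (log2 change -1.36). Pdcd2l was the gene not called (log2 change -0.16). Of 17 regulators of TOP mRNAs or of ribosomal protein genes, 11 were called lower and 2 higher. Larp1 read 39.9, 40.7 and 37.5 in WT and 25.1, 23.3 and 24.0 in NULL (log2 change -0.69). The higher genes were the kinase Mtor, with 48.8, 55.5 and 54.0 FPKM in WT and 93.4, 88.1 and 82.3 in NULL, and its partner Rptor (log2 changes 0.73 and 0.93). Against the 42% lower and 23.3% higher among all tested genes, the chaperones held the largest share of lower calls of these lists.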

How the data were processed

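Bone marrow RNA of 6 mouse samples was measured, and the sample titles gave groups and letters. The authors deposited FPKM, fragment numbers divided by transcript length and library size. The submitters' processing notes name Bowtie, Cufflinks, mm10 and GRCm38. The sources used here give no versions, gene annotation, treatment of reads with several positions or scaling between libraries. The table had 23848 rows, of which 489 with a repeated symbol were left out, and 0 values differed from the tables of the single libraries. The members, the gene lists and the tests were chosen with earlier results of these data known.

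Values of all 9916 genes averaging 1 FPKM or more, as log2(FPKM + 1), were fitted in R 4.3.3 by limma 3.58.1 along a mean-variance trend. Its two-sided p-values were adjusted by Benjamini-Hochberg over all of these genes, with a threshold of 0.05. Fold changes on this scale are understated for weakly expressed genes. The limma fit was tried on simulated data with independent noise for each gene. That trial held no scaling differences between libraries, GC effects or shared sequence, so it does not bear on those steps. The commonest step between low values gave a rough depth, which supports no counting interval. Genes named are the paralog pairs, the 4 lowest and 4 highest changes of each subunit, genes called higher, up to 3 genes of each functional group, genes with a 0, the 4 most different genes in each direction within the ribosomal proteins, and Gab2. A few genes are counted but neither named nor drawn, as their own values are not reported here. Further names are marked as chosen after their values were seen. Shared stretches are exact matches of 100 bases between GENCODE vM21 transcripts of different genes, in the sense direction. Copy rows and other alternatives are given with the dependence on processing. The GC corrections and the added copy rows were chosen after seeing the data.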

Additional observations from a re-analysis of the deposited data

How the results depend on the processing

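Counts of ribosomal protein genes rest on the scaling between libraries, and FPKM carry no depth of their own, so low genes such as Rpl3l and Rps27 are the least certain. The 50 lower calls became 32 without a filter on low values, 21 after quantile normalization, 9 after rescaling to a common total and 21 when small RNA genes were left out of it. The large subunit (33) gave 13, 5 and 13 under the 3 rescalings, and the small subunit (17) gave 8, 4 and 8, and 10 without a filter. The single higher call became 0 with a filter of 5 FPKM, which removes Rpl3l, 2 after median-of-ratios rescaling, 9, 2 and 9 under the other 3 rescalings and 3 with array weights. Leaving out 1 library gave 41 to 53 lower and 1 to 5 higher calls, with 27 to 35 lower in the large and 14 to 18 in the small subunit. In these fits 37.9% to 41.1% of all tested genes were called lower and 20.4% to 24% higher. The 5 higher calls came without WT C, when Rpl36, Rplp2 and Rps19 were among the genes that joined Rpl3l, and the median was -0.37. The 30 genes that differed from the other ribosomal proteins became 51 with array weights, and 21 to 35 without 1 library. The log2 ratio of Rpl3l to Rpl3 was 4.33 with a pseudocount of 0.1 and 2.35 to 2.77 without 1 library. Beyond these values, the cause was not tested.

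Among the other lists, lower TOP mRNAs numbered 13 (quantile) and 10 (common total), and higher ones 5, 0 and 5 (quantile, common total, common total without small RNAs). Lower TOP regulators numbered 7, 2 and 4 under these 3, and higher ones 4 (median of ratios), 4 (quantile) and 5 (common total without small RNAs). For the chaperones, 1 was higher under the last.

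Of 72 negative log2 changes, 5 turned positive after median-of-ratios rescaling, 17 after quantile normalization (2 of them called lower before), 11 with a common total and 18 without small RNAs in it (1 called lower before). Among the genes that the naming rule takes, under quantile normalization the change was 0.0149 for Rpl17, 0.16 for Rpl19, 0.12 for Rps24 and 0.31 for Rps28, which was then called higher. With a common total it was 0.0443 for Rpl19, 0.0187 for Rps24 and 0.28 for Rps28. Without small RNAs in it, it was 0.14 for Rpl19, 0.0045 for Rplp0, 0.0177 for Rps10, 0.12 for Rps24 and 0.38 for Rps28, again called higher. Median-of-ratios rescaling gave 0.15 for Rps28 and array weights gave 0.0179 for Rps28 and -0.0383 for Rps27, which stood at -0.0355 with its copy added. GC correction gave -0.0852 for Rpl36 and -0.27 for Rps15, the same with the replicate block. Without 1 library, the changes ranged from -0.10 to 0.63 for Rpl36, -0.12 to 0.29 for Rps15, -0.0635 to 0.34 for Rps27 and -0.14 to 0.17 for Rps28.

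The letters shared by the groups were tried as a replicate block. Same-letter libraries had correlations of deviations of 0.0735 (A), 0.355 (B) and 0.133 (C), against -0.202 to 0.0451 for unlike letters. Each library thus correlated best with its own letter. The labels do not say whether the letters pair the samples, and the main fit did not use them. With the replicate block 48 genes were lower and 1 higher, with 30 lower in the large and 18 in the small subunit. Of all tested genes 38.3% were called lower and 20.7% higher with it. With the block, 27 genes differed from the other ribosomal proteins.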
